A study of Homo sapiens with 4 samples.

Results

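The 10 genes described here encode androgen and steroid converting enzymes: AKR1C1, AKR1C2, AKR1C3, SRD5A1, SRD5A3, HSD17B4, HSD17B6, HSD3B1, STS and UGT2B15. They were taken by gene name from a deposited table of 60544 genes, and all 10 names were found. The libraries were made from poly(A) RNA of PC3, an established line of human prostate cancer cells, grown in medium with fetal bovine serum. Cells labelled shNC (2 libraries) were compared with cells labelled sh812 (2 libraries), to ask what knockdown of METTL3, the catalytic subunit of the messenger RNA m6A methyltransferase, does to expression. The labels give no time point, and do not say whether the replicates were separate cultures or the cells pools or clones. P-values therefore measure only the spread between these libraries, which may be technical. As sh812 is the only knockdown label, loss of METTL3 and any other effect of sh812 cannot be told apart.

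Steroid precursors circulate largely as sulfates. STS removes the sulfate, HSD3B1 and the AKR1C and HSD17B enzymes oxidize or reduce the exposed groups, SRD5A1 makes the most potent androgen, dihydrotestosterone, and UGT2B15 tags androgens with glucuronic acid for disposal. In prostate cancer these steps are known for supplying androgen inside the tumor when the circulating level is low. A pair of the genes also have a main role outside androgen conversion: SRD5A3 reduces polyprenol to dolichol, the lipid carrier of N-glycan synthesis, and HSD17B4 is a multifunctional enzyme of peroxisomal fatty acid oxidation.

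Total counts ran from 31450648 to 37041330 per library. METTL3 counts were 1682 and 1379 with shNC and 269 and 313 with sh812. Its sh812 mean was 18.7% of the shNC mean after scaling. METTL3 shares 388 exon bases with TOX4 on the opposite strand. Whether TOX4 reads entered the METTL3 counts was not tested. Of 11 epithelial and prostate markers, the keratin gene KRT8 had 7650 to 9102 counts, the prostate secretory genes KLK2 and KLK3 had none in any library, and 9 were tested. KRT18, EPCAM and CDH1 were called higher in sh812 and TMPRSS2 lower in edgeR, at log2 fold changes of 0.30, 0.45, 0.57 and -0.74. Of 11 markers of other cell types, CD3E and CYP11B2 had no count and PTPRC had 12 to 32 counts, while COL1A1 had 1029 to 1426, PECAM1 748 to 1379 and COL1A2 302 to 480. The summed level of the list was 73.3 to 75.0 CPM in shNC and 78.0 to 88.8 CPM in sh812. CPM is the count scaled to library size, with trimmed-mean (TMM) factors. Of the 6 genes of this list that were tested, 2 were called higher in sh812 in edgeR (PECAM1 and COL1A2) and 0 lower, beside 5.43% and 5.42% of all tested genes. The part of either list in the results was not tested. Less RNA per cell and fewer cells of one kind cannot be told apart in bulk RNA.

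The aldo-keto reductases of the AKR1C group are so alike that their sequences set what the counts can show. Their reading frames are each 969 bases long, and AKR1C1 differs from AKR1C2 at 19 of these bases (98.0% identity) and from AKR1C3 at 83 (91.4%). The lines below give the 150 coding bases, one read length, in which AKR1C1 and AKR1C2 differ most, at positions 13 to 162 of the reading frame in GENCODE 29. Capitals mark bases that differ from AKR1C1.
AKR1C1: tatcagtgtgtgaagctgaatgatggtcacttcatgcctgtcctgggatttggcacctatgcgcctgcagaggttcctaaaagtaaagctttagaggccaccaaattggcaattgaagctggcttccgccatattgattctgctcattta
AKR1C2: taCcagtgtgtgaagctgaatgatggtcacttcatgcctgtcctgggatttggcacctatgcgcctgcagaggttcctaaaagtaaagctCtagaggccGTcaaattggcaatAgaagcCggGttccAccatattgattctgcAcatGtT
AKR1C3: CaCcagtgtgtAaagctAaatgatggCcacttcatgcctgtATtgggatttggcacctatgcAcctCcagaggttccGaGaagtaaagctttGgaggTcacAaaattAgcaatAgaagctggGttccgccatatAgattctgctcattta
In this stretch AKR1C2 has 11 differences from AKR1C1 and AKR1C3 has 18. At positions 516 to 665 AKR1C1 and AKR1C2 have none, as the next lines show with the same use of capitals, so that a read from there, taken without its mate, cannot be assigned to one of them.
AKR1C1: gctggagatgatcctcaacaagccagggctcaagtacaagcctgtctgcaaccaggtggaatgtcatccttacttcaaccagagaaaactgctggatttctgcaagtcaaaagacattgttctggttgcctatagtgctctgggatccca
AKR1C2: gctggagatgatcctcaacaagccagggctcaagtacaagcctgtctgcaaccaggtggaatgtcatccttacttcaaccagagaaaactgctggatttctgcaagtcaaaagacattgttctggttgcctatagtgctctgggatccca
AKR1C3: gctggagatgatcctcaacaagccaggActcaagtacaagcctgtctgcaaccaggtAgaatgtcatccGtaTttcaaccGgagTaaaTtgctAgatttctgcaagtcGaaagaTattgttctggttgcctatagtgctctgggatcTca
Of the 150-base windows of the principal transcript, 11.3% in AKR1C1, 21.2% in AKR1C2 and 1.33% in AKR1C3 also occur in a transcript of another gene. Of the windows inside the reading frame, 4.63%, 7.32% and 2.68% did, in that order. AKR1C1 shared its windows with AKR1C2 alone, and AKR1C2 shared its windows with AKR1C1 and AKR1C3. How reads with several matches were counted is not given in the sources used here, so the AKR1C1 and AKR1C2 counts are uncertain. UGT2B15 shared 4.88% of its windows with UGT2B17. The other 6 genes (SRD5A1, SRD5A3, HSD17B4, HSD17B6, HSD3B1 and STS) shared none.

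Of the 10 genes, 8 passed edgeR's filter on low counts and were tested. Only STS passed the test, and it rose. The 7 others did not pass an adjusted p of 0.05: AKR1C1, AKR1C2, AKR1C3, SRD5A1, SRD5A3, HSD17B4 and HSD17B6. Over all 16802 genes that were tested, 10.8% were called, 5.43% as higher in sh812 and 5.42% as lower, so 1 call among 8 genes is a share near that background. Counts of calls in the lists below stand beside these shares. An unadjusted p under 0.05 in edgeR was reached by 4 of the 8 genes and by 4161 of all 16802. The log2 fold changes of the 8 genes, sh812 over shNC, had a median of 0.025, beside -0.0056 over all tested genes, with 4 of the 8 above 0 and 4 below. Over all genes, edgeR called 912 higher and 910 lower, against 261 and 326 without sh812 replicate 1, 278 and 404 without sh812 replicate 2, 930 and 915 without shNC replicate 1, and 1703 and 1549 without shNC replicate 2. Calls lost or gained below in these fits stand beside those counts. For the 8 genes, leaving out shNC replicate 1 gave a median of -0.049, and leaving out shNC replicate 2 gave 0.18. In 4 of the 8 the groups did not overlap (STS and SRD5A1 higher in sh812, AKR1C1 and HSD17B6 lower), an arrangement that 53.6% of all tested genes showed, 26.2% with sh812 higher and 27.4% with sh812 lower.

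**Figure D1:**
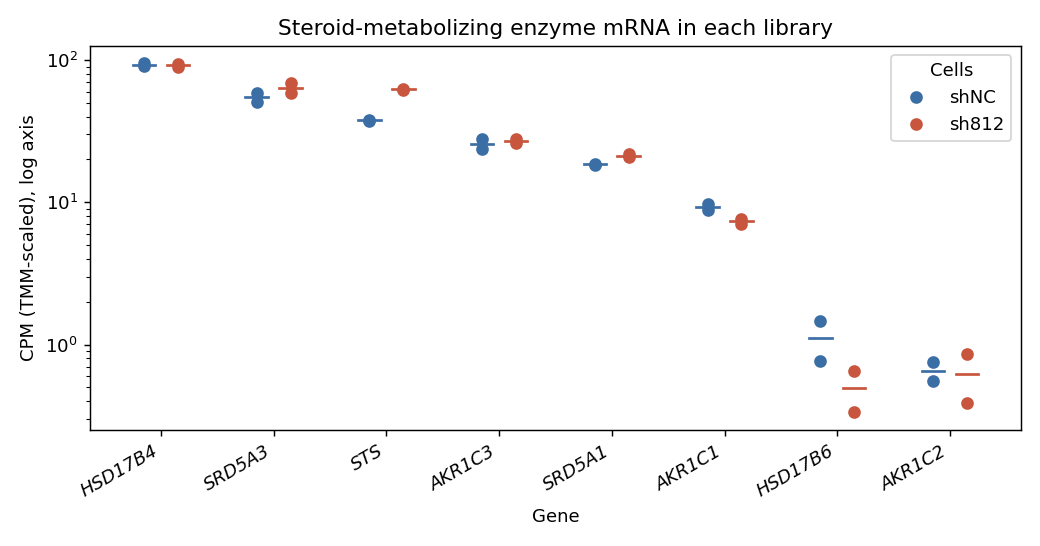
Level of the 8 tested genes in each library, as TMM-scaled CPM on a log axis; points are libraries (blue shNC, red sh812) and short lines are group means. STS is the gene whose groups lie clearly apart, at 37.4 and 37.8 CPM in shNC and 61.3 and 63.0 CPM in sh812.

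STS (ENSG00000101846) encodes steroid sulfatase, the enzyme of the endoplasmic reticulum that frees dehydroepiandrosterone and estrone from their sulfates. It lies on the plus strand of chromosome X, from 7219456 to 7354810 in GENCODE 29 (GRCh38), and no exon of another gene overlaps its exons there. Its counts were 1435 and 1182 in the shNC libraries, against 2152 and 2255 in the sh812 libraries. Both sh812 libraries were above both shNC libraries, and the groups were separated by far more than either pair differed. The level rose from 37.6 ± 0.323 CPM to 62.2 ± 1.21 CPM (SD, n = 2), which is 1.65-fold. The log2 fold change was 0.72 (SE 0.077, 95% interval 0.57 to 0.88), with a Benjamini-Hochberg adjusted p of 5.51e-07 from edgeR, and STS ranked 39 among all tested genes by p-value. Leaving out each library in turn gave 0.70 to 0.75.

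METTL3 acts on the sequence motif GGACU and its relatives, and the coding sequence of STS holds GGACT, the DNA spelling, 3 times. They are shown for the gene that changed, with the motif in capitals and coding positions counted from the start codon.
STS 152 to 156: aaaactatcaGGACTcccaatatcg
STS 328 to 332: ctcttcgggaGGACTtcccaccgat
STS 945 to 949: ttgaggaaatGGACTggagtgtggg
This is 1.72 sites per kb, and 76.4% of 19041 protein-coding genes have fewer per kb (median 0.982). Genes that did not pass the test also held it, with 3.15 per kb in HSD17B6, 3.10 in AKR1C3, 2.06 in AKR1C2, 1.81 in HSD17B4, 1.05 in SRD5A3 and 1.03 in AKR1C1. SRD5A1 and HSD3B1 had no GGACT in the coding sequence. Only coding sequences were searched, so sites in the untranslated regions were not counted. The coding sequence makes up 1749 of 6521 transcript bases in STS and 777 of 7132 in SRD5A1. Methylation was not measured in these libraries, and a match is a description of the sequence, not a methylated site.

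Around STS on the X chromosome, 6 other tested genes lay within 2 Mb, and they went in different directions. PUDP, the nearest tested gene, rose by 0.29 on the log2 scale (SE 0.091, adjusted p = 0.0369 in edgeR). ANOS1 and NLGN4X fell, with log2 fold changes of -0.80 (SE 0.11) and -1.26 (SE 0.17) and edgeR adjusted p-values of 3.19e-05 and 1.57e-05. PNPLA4, which lies between STS and ANOS1, was at -0.083 (SE 0.090) and was not called.

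The AKR1C genes stand in a row on chromosome 10, from 4963253 (start of AKR1C1) to 5107686 (end of AKR1C3). AKR1C3, the reductase that turns androstenedione into testosterone, was the most abundant of the group, and its difference was within the spread of its libraries. It had 893 and 885 counts in shNC and 920 and 997 in sh812, or 25.8 ± 3.14 and 27.0 ± 1.17 CPM (SD, n = 2). The groups overlapped. Its log2 fold change was 0.072 (SE 0.10, 95% interval -0.14 to 0.28, adjusted p = 0.73 in edgeR).

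AKR1C1, which inactivates progesterone by reduction, was lower in both sh812 libraries, without passing the test. It had 337 and 306 counts in shNC and 270 and 254 in sh812, and its mean level was 9.28 ± 0.559 and 7.39 ± 0.420 CPM (SD, n = 2). The log2 fold change was -0.33 (SE 0.15), and the p in edgeR was 0.0345 unadjusted and 0.16 adjusted. AKR1C2, which reduces dihydrotestosterone to a weak androgen, was scarce. Its counts of 21 and 24 in shNC and 30 and 14 in sh812 overlapped, and the interval of its log2 fold change ran from -1.23 to 1.09 (95%).

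The summed AKR1C counts overlapped between the groups, and AKR1C1 took a smaller share of them in both sh812 libraries. Summed over AKR1C1, AKR1C2 and AKR1C3, which removes any misassignment among them, the counts were 1251 and 1215 in shNC and 1220 and 1265 in sh812. Fitted as 1 feature, the sum was at -0.024 on the log2 fold scale (SE 0.091, adjusted p = 0.91 in edgeR). Of the counts of AKR1C1 and AKR1C3 together, AKR1C1 held 27.4% and 25.7% with shNC and 22.7% and 20.3% with sh812. The exact 95% Clopper-Pearson intervals, which cover counting error only, were 24.9% to 30% and 23.2% to 28.3% in shNC, and 20.3% to 25.2% and 18.1% to 22.6% in sh812. The groups did not overlap, but the intervals of shNC replicate 2 and sh812 replicate 1 did. With 2 libraries a group, an exact two-sided permutation test cannot go below p = 0.333, which is the value it gave for this share. AKR1C1 has the longer principal transcript (6705 bases against 1807 in AKR1C3), and the libraries carry a trend with transcript length, given below. With that trend removed, AKR1C1 was at -0.24 and AKR1C3 at 0.0061 on the log2 scale, against -0.33 and 0.072 with it. The part of this trend, or of reads with several matches, in the share was not tested.

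**Figure D2:**
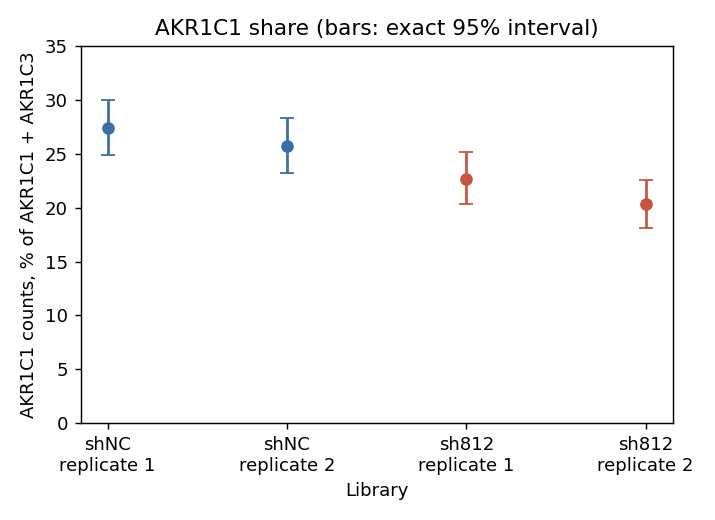
Share of AKR1C1 in the summed counts of AKR1C1 and AKR1C3, in percent, in each of the 4 libraries (blue shNC, red sh812); bars are exact 95% binomial intervals. The shNC libraries sit at 27.4% and 25.7% and the sh812 libraries at 22.7% and 20.3%.

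Genes near the AKR1C row leaned to lower levels in sh812. Within 2 Mb, 19 other genes were tested, of which 0 were called higher and 4 lower, with a median log2 fold change of -0.18 and 2 of the 19 above 0. The 4 were PITRM1, TASOR2, ANKRD16 and NET1, at -0.39, -0.44, -0.60 and -0.23. Within 5 Mb, 9 of 30 were called lower and 0 higher, with a median of -0.21, against 5.42% called lower in the whole table. AKR1C1 at -0.33 was on the same side as most of these neighbours and AKR1C3 at 0.072 on the other. The part of the segment in the AKR1C1 values was not tested.

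**Figure D3:**
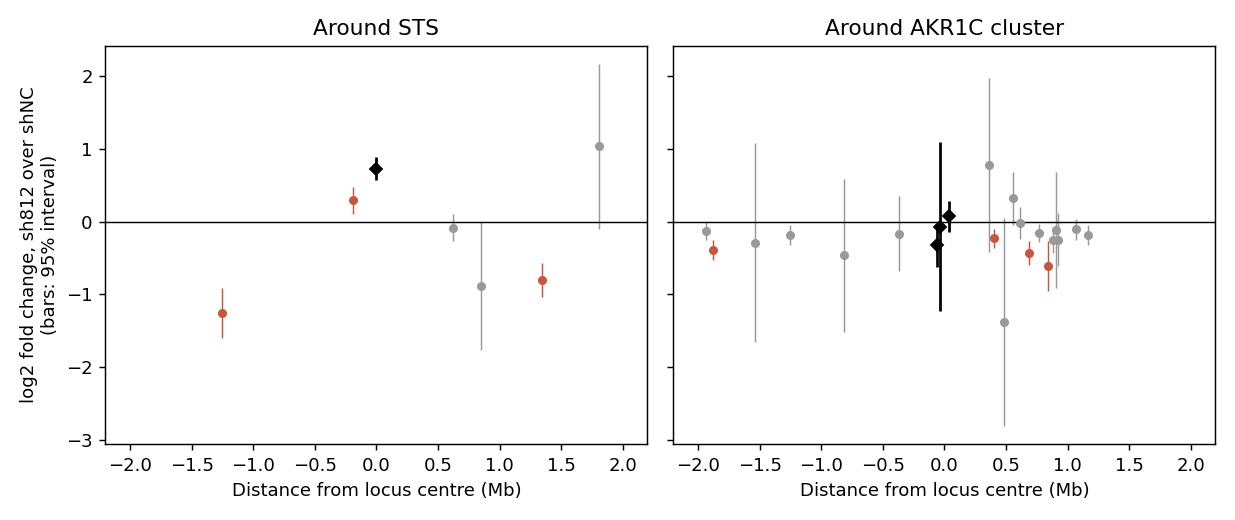
Log2 fold change (sh812 over shNC, bars 95% intervals) of tested genes within 2 Mb of STS (left) and of the AKR1C genes (right), against distance in Mb from the centre of the locus; black diamonds are STS and the AKR1C genes, red points are called neighbours and grey points are not called. Of 19 neighbours of the AKR1C genes 4 were called, all lower, while STS at 0.72 has called neighbours on both sides of 0.

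The steroid reductases SRD5A1 and SRD5A3 were slightly higher in sh812 and neither passed the test. SRD5A1, which converts testosterone to dihydrotestosterone, had 18.6 and 18.4 CPM with shNC and 20.7 and 21.8 CPM with sh812. These groups did not overlap, and the log2 fold change was 0.20 (SE 0.10, adjusted p = 0.25 in edgeR). SRD5A3 had 50.7 and 58.4 CPM in shNC and 58.4 and 68.7 CPM in sh812, with shNC replicate 2 just above sh812 replicate 1. Its log2 fold change was 0.22 (SE 0.085), and the p in edgeR was 0.0154 unadjusted and 0.095 adjusted. Leaving out shNC replicate 2 or sh812 replicate 1 gave log2 fold changes of 0.33 and 0.34, and leaving out shNC replicate 1 or sh812 replicate 2 gave 0.12 and 0.097. The adjusted p in edgeR passed the threshold without shNC replicate 2 (0.000594), with the replicate block (0.0499) and with the length trend removed (0.0499), and over the alternatives it ran from 0.000594 to 0.74. SRD5A3 shares 198 exon bases with SRD5A3-AS1 on the opposite strand. Whether the counting used strand is not given in the sources used here.

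In the dolichol pathway that SRD5A3 serves, 10 other genes were tested and 0 were called in edgeR. An unadjusted p under 0.05 in edgeR was reached by 2 of the 10, beside 4161 of all 16802 tested genes. The median log2 fold change of the 10 was 0.083, and 8 of them were above 0. The most abundant of them per transcript length was DPM1, a subunit of dolichol-phosphate mannose synthase, at 0.074 (SE 0.071). The median was 0.037 with no scaling beyond library size and 0.038 with the length trend removed. In DESeq2 0 of the 10 were called as well. With the replicate block 1 was called higher, and without shNC replicate 2, where 1703 of all genes were called higher, 3 were.

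HSD17B4 was the most abundant of the 10 genes and its groups overlapped. It had 91.1 and 94.7 CPM in shNC and 89.6 and 93.4 CPM in sh812. The log2 fold change was -0.021 (SE 0.066, 95% interval -0.16 to 0.12, adjusted p = 0.89 in edgeR). Its exons share 182 bases with FAM170A on the same strand. HSD17B6, which can regenerate dihydrotestosterone from its reduced metabolite, was scarce, with 29 and 46 counts in shNC and 23 and 12 in sh812. Both sh812 libraries were below both shNC libraries. The log2 fold change was -1.15 (SE 0.53), with 0.18 as the edgeR adjusted p, and it ran from -1.70 to -0.62 as each library was left out. HSD17B6 shares 132 exon bases with PRIM1 on the opposite strand.

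In peroxisomal beta-oxidation, the pathway of HSD17B4, 18 other genes were tested, of which 1 was called higher and 0 lower. The called gene was ACOX2, the oxidase of branched-chain acyl-CoA and bile acid intermediates, with 14.8 ± 0.188 and 19.1 ± 0.0585 CPM (SD, n = 2) and 0.37 as log2 fold change (SE 0.11, adjusted p = 0.0301 in edgeR). Its adjusted p was 0.091 with DESeq2 and 0.061 with no scaling beyond library size, and from 0.060 to 0.19 without shNC replicate 1, sh812 replicate 1 or sh812 replicate 2, while the log2 fold change ran from 0.33 to 0.39 over the alternatives. The median of the 18 was -0.058.

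HSD3B1 and UGT2B15, which make androstenedione from dehydroepiandrosterone and conjugate dihydrotestosterone, could not be compared. HSD3B1 had no count in any library, where a count of 0 allows up to 0.0791 to 0.0949 CPM. UGT2B15 had 2 and 0 counts in shNC and 1 and 4 in sh812, and did not pass the filter. A difference in either gene was not detectable at this depth.

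**Figure D4:**
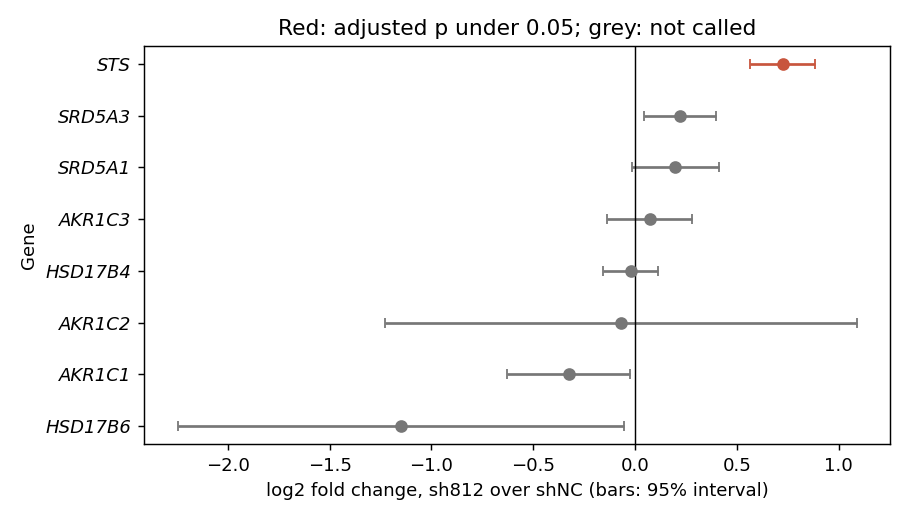
Log2 fold change of the 8 tested genes, sh812 over shNC, with bars of the 95% interval; red marks an adjusted p under 0.05 in edgeR and grey genes that were not called. STS at 0.72 is the only called gene. The intervals, which are not adjusted for the number of genes, also leave out 0 in AKR1C1 (-0.63 to -0.026), HSD17B6 (-2.25 to -0.053) and SRD5A3 (0.046 to 0.40). Those of HSD17B6 and AKR1C2, the genes with the fewest counts, are the widest.

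Per kb of principal transcript, the order of levels in the shNC libraries began with HSD17B4 at 34.6 ± 0.951 CPM per kb (SD, n = 2). AKR1C3 at 14.3 ± 1.74 and SRD5A3 at 13.0 ± 1.30 CPM per kb followed and did not differ beyond their spread. STS came next at 5.77 ± 0.0496, then SRD5A1 at 2.59 ± 0.0213, AKR1C1 at 1.38 ± 0.0834, HSD17B6 at 0.634 ± 0.279 and AKR1C2 at 0.175 ± 0.0386 CPM per kb. In sh812 the order was the same except that SRD5A3, at 15.2 ± 1.75, and AKR1C3, at 15.0 ± 0.646 CPM per kb, changed places within their spread, and STS reached 9.53 ± 0.185 CPM per kb. The AKR1C1 value depends on a principal transcript of 6705 bases, against 1807 in AKR1C3.

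STS rose while most other sulfatase genes had values below 0. Of 15 other sulfatases and sulfatase-activating genes that were tested, 2 were above 0 and 13 below, with a median log2 fold change of -0.19, and 1 was called higher and 1 lower. Of all 16802 tested genes, 8570 were below 0. Without shNC replicate 1 the median was -0.12, and 2 genes were called lower there and with no scaling beyond library size. Without shNC replicate 2, 3 were called lower. SULF2, which trims sulfate from heparan sulfate outside the cell, rose from 168 ± 5.16 to 199 ± 10.3 CPM (SD, n = 2; log2 fold change 0.24, SE 0.061, adjusted p = 0.0114 in edgeR). SGSH, a lysosomal heparan sulfamidase, fell from 50.2 ± 1.89 to 37.5 ± 1.98 CPM (SD, n = 2; log2 fold change -0.42, SE 0.082, adjusted p = 0.00150 in edgeR). SUMF1, which activates sulfatases including steroid sulfatase, was at -0.076 (SE 0.079) and was not called. ARSD, a neighbour of STS in sequence family and on the same chromosome arm, was at 0.096 (SE 0.15). No test compared STS with these genes. The calls of SULF2 and SGSH were lost without sh812 replicate 1 (adjusted p of 0.055 and 0.061 in edgeR), at log2 fold changes of 0.30 and -0.36. That of SULF2 was also lost without sh812 replicate 2 (adjusted p of 0.30 in edgeR), at 0.19.

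**Figure D5:**
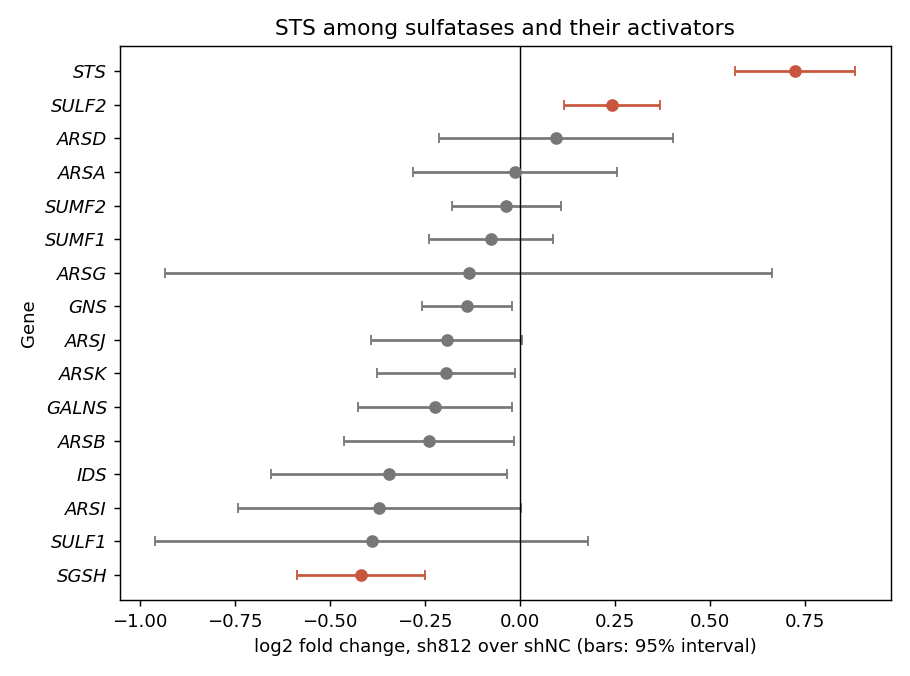
Log2 fold change (sh812 over shNC, bars 95% intervals) of STS and the 15 tested genes of the sulfatase list; red marks an adjusted p under 0.05 in edgeR. STS at 0.72 and SULF2 at 0.24 are the called genes above 0 and SGSH at -0.42 the one below.

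Genes of steroid synthesis from cholesterol ranged from no count to a mean of 82.5 CPM in shNC (TSPO). Of 14 genes listed for this synthesis, CYP17A1, HSD3B2, CYP11B1 and CYP11B2 had no count. STAR, CYP11A1, CYP19A1 and CYP21A2 were under the filter, with at most 4 counts in a library. The 6 tested were STARD3, TSPO, FDX1, FDXR, CYB5A and POR. All 6 had log2 fold changes above 0, beside 8232 of all 16802 tested genes. Their median was 0.12. With library size alone it was 0.074, with 5 above 0, and without sh812 replicate 2 it was 0.078, with 4 above 0. CYB5A, a cytochrome that assists androgen synthesis, rose from 42.4 ± 1.09 to 51.7 ± 2.84 CPM (SD, n = 2; log2 fold change 0.29, SE 0.080, adjusted p = 0.0215 in edgeR), and the other 5 were not called. Its adjusted p was 0.054 with library size alone, 0.34 without sh812 replicate 1 and 0.075 without sh812 replicate 2, at log2 fold changes of 0.24, 0.23 and 0.34 in that order.

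Among 17 other steroid oxidoreductases, 11 were tested, 1 was called higher and 0 lower. This was HSD17B8, an enzyme of mitochondrial fatty acid synthesis that also oxidizes estradiol, with 100 and 96 counts in shNC and 179 and 149 in sh812. The fitted log2 fold change was 0.71 (SE 0.22), with 0.0352 as the edgeR adjusted p. The call was lost with DESeq2 (adjusted p = 0.15), with the length trend removed (0.089) and when shNC replicate 1, sh812 replicate 1 or sh812 replicate 2 was left out (0.050 to 0.35). The log2 fold change was 0.71 with DESeq2, 0.58 with the length trend removed, and 0.61, 0.56 and 0.85 without those libraries. The reductase SRD5A2 and the liver enzyme AKR1C4 had at most 2 counts in a library.

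Of 19 genes of steroid conjugation and hydroxylation, 8 were tested, 1 was called higher and 0 lower. CYP1B1, which hydroxylates estrogens, had 851 and 610 counts in shNC and 1164 and 1284 in sh812. Its rise had the size of that of STS, from 20.9 ± 2.23 to 34.5 ± 1.92 CPM (SD, n = 2; log2 fold change 0.72, SE 0.099, adjusted p = 2.72e-05 in edgeR). UGT2B11, UGT2B17, UGT2B28 and SULT2A1 had no count. PAPSS1 and PAPSS2, which make the sulfate donor for the reverse of the STS reaction, were at 0.051 (SE 0.072) and -0.16 (SE 0.080) and were not called.

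AKR1C genes are known targets of the oxidative stress regulator NRF2, and a list of 19 targets and regulators of NRF2 was read beside them. Of these, 3 were called higher (FTH1, FTL and TKT at log2 fold changes of 0.34, 0.20 and 0.22) and 2 lower (ABCC3 and SLC7A11 at -0.41 and -0.32). Over all tested genes, 5.43% were called higher and 5.42% lower. The list had a median of -0.066. The median was -0.0059 without sh812 replicate 1, -0.025 without shNC replicate 2 and -0.11 with no scaling beyond library size. The ferritin subunits FTH1 and FTL store iron, TKT is an enzyme of the pentose phosphate pathway, ABCC3 exports conjugates and SLC7A11 imports cystine. Their adjusted p-values in edgeR were 0.000169, 0.0199, 0.0138, 0.00183 and 0.0115 in that order. Without sh812 replicate 1, FTL, TKT, ABCC3 and SLC7A11 lost the call, and without sh812 replicate 2, FTL, TKT and SLC7A11 did. Their log2 fold changes were 0.20, 0.19, -0.32 and -0.35 in the first fit, and 0.21, 0.25 and -0.28 in the second. With the length trend removed, FTL at 0.067 and SLC7A11 at -0.22 were not called (adjusted p of 0.44 and 0.079 in edgeR). NQO1, at -0.066 (SE 0.064), and NFE2L2, the gene of NRF2, at 0.12 (SE 0.066), were not called. Of 8 aldo-keto reductases outside the AKR1C group, 5 were tested and 0 called in edgeR, with 0 at an unadjusted p under 0.05 and 0 called in DESeq2. AKR7A2, the most abundant of them per transcript length, was at 0.050 (SE 0.093).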

How the data were processed

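Gene counts of 4 PC3 libraries (2 shNC, 2 sh812) were used as deposited, as whole-number counts per gene that the authors had not normalized. Per the submitters' processing notes, fastp, STAR 2.7.1a, featureCounts and DESeq2 were used with build hg38. Their roles, the annotation and the strand setting are not given in the sources used here. Per the labels' protocols, the library method keeps strand and reads were paired, of 150 bp.

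The groups were compared in R 4.3.3 with edgeR 4.0.16 (filterByExpr, TMM, glmQLFit and glmQLFTest on all 4 libraries, no covariate), with Benjamini-Hochberg adjustment over 16802 genes and a threshold of 0.05. The SE is the absolute log2 fold change over the root of the F statistic. Alternatives were RLE, upper quartile and library-size scaling, other low-count filters, DESeq2 1.42.0, limma-voom (limma 3.58.1), a prior count of 2, a replicate block, removal of the trend on longest transcript length, and each library left out. Replicates differed by more than sampling noise (chi-square per gene 8.43 in shNC, 4.51 in sh812). Positions, transcripts and lengths are from GENCODE 29; 150-base windows were matched exactly. Windows of 1 Mb, and those around genes other than AKR1C, were chosen after seeing the data.

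The genes and lists were chosen with earlier results of these data known. Named are the 10 genes, METTL3, list genes called at the threshold (up to 6 a list) and otherwise the most abundant of a list per length. Other genes named, including the markers, the neighbours of STS and AKR1C, and PAPSS1, PAPSS2, SUMF1, ARSD, NQO1, NFE2L2 and genes with few or no counts, were chosen after their values were seen. Some results are not reported here.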

Additional observations from a re-analysis of the deposited data

How the results depend on the processing

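STS kept its direction and its adjusted p under 0.05 in each of 14 alternatives, with log2 fold changes from 0.68 (library size alone) to 0.81 (length trend removed), as did METTL3 from -2.52 to -2.33. The count of the 10 genes called higher was 1, and 2 with the replicate block, with the length trend removed and without shNC replicate 2. It ran from 1 to 2 as each library was left out, and the count called lower was 0 in each of 13 alternatives. The added gene was SRD5A3, at 0.22 (adjusted p = 0.0499) with the block, 0.26 (0.0499) with the length trend removed and 0.33 without shNC replicate 2. The sign changed in 3 genes that were called in none of their alternatives. HSD17B4 (-0.021) was 0.054 with the length trend removed, and ran from -0.053 to 0.013 as a library was left out. AKR1C2 ran from -0.73 to 0.38 and AKR1C3 from -0.050 to 0.21 in the same way. The cause was not tested. Fits without a library leave a group of 1, assumed to vary like the other group.

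The replicate numbers 1 and 2 are shared by both groups. Across genes, same-numbered libraries deviated from their group means with a Pearson correlation of 0.016, which is no sign of pairing. With the block 1003 genes were called higher and 998 lower, against 912 and 910. Across 12254 genes, the Spearman correlation of the log2 difference with transcript length was -0.33 between groups, -0.32 for the shNC pair of replicates and 0.042 for the sh812 pair. Library size alone called 561 higher and 1328 lower. With 2 libraries a group, genes with few counts (AKR1C2, HSD17B6) can hide sizeable changes.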
